A study of Mus musculus with 13 samples.

Results

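Glucose uptake and glycolysis were followed through 10 genes, the glucose transporter Slc2a1 and the enzymes Hk1, Hk2, Pfkl, Pfkp, Aldoa, Pgk1, Eno1, Pkm and Ldha. They were chosen by symbol, and all 10 were found among the 22406 symbols of the footprint tables. Ribosome footprint profiling sequences the stretches of mRNA that ribosomes cover, so that a gene's value is its share of the translating ribosomes of a sample, a relative level of protein synthesis. Mouse embryonic fibroblasts (MEFs) that were WT or knocked out for PERK (PERK -/-), the ER stress kinase encoded by Eif2ak3, were left untreated or given 1 µM thapsigargin (Tg) for 1, 2, 5 or 8 h. Tg blocks the SERCA pump that fills the ER with calcium, and so causes ER stress. NIH3T3 cells, an established line of mouse fibroblasts, were untreated or given 200 nM Tg for 2 or 7 h. No cycloheximide was given before the cells were detached with trypsin, spun down and frozen. Each genotype was 1 line of MEFs, so that genotype and line cannot be told apart, and the dose differed between MEFs and NIH3T3 cells. There was 1 library for each of the 13 conditions, hence no replicate to check a difference against, and none was tested.

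The WT libraries summed to 11949174 expected counts without Tg and to 3609292, 2525029, 5617552 and 11178364 after 1, 2, 5 and 8 h. Those of PERK -/- MEFs summed to 6735073 without Tg and to 10011722, 14799515, 8035736 and 7446112 after the same times. For NIH3T3 cells the totals were 11121006, 2569965 and 5756011 after 0, 2 and 7 h. A level of 3 counts, taken as the lowest detectable, lay between 0.203 and 1.19 CPM, which are counts scaled to the library total, and the lowest count of any of the 10 genes was 126, for Pfkp in NIH3T3 cells at 2 h. Levels are given in TPM, which corrects for the length of the coding sequence. Values under 4 TPM were raised to 4, each Tg library was set against the control of its own genotype or cell line, and a gene was called changed when it was at least 2-fold apart. The 4 Tg libraries of a genotype share 1 control, as do both of NIH3T3 cells. Intervals are exact conditional (Clopper-Pearson) 95% intervals of the log2 change of counts per library total, and cover counting error only. All 10 genes passed the filter on low values, a mean of at least 2 TPM, which left 10432 genes in MEFs and 10117 in NIH3T3 cells.

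Eif2ak3 was at 21.3, 14.4, 19.0, 33.3 and 32.7 CPM in WT MEFs at 0, 1, 2, 5 and 8 h, at 11.0, 8.99, 7.64, 13.2 and 19.1 CPM in PERK -/- MEFs, and at 34.6, 25.7 and 49.7 CPM in NIH3T3 cells at 0, 2 and 7 h. On this scale the PERK -/- line was below the WT line at each time. In TPM it was not, with 6.03, 8.49, 6.20, 14.0 and 15.7 in WT and 11.2, 7.32, 5.21, 14.9 and 17.2 in PERK -/- MEFs, higher without PERK at 0, 5 and 8 h. The gene tables do not show on which exons these footprints lie. The TPM of Atf4, a stress transcription factor whose translation PERK promotes, was 34.5 in the WT control and 576 at 8 h, 41.4 and 58.2 in PERK -/- MEFs, and 178, 1491 and 527 in NIH3T3 cells at 0, 2 and 7 h. Ddit3, a target of Atf4, was at 13.8 and 579.8 TPM in WT and 6.91 and 13.3 in PERK -/- MEFs at 0 and 8 h. Hspa5, an ER chaperone, rose 5.27-fold in WT, 2.66-fold in PERK -/- MEFs at 8 h and 6.15-fold in NIH3T3 cells at 7 h. Of 8 fibroblast markers, 7 had at least 4 TPM in the WT control (Pdgfra, at 0.270, did not), 8 in the PERK -/- control and 7 in the NIH3T3 control (Col3a1, at 0.640, did not). The most abundant was Vim in the MEF controls (2977 and 2581) and Col1a2 in that of NIH3T3 cells (1939). Their summed TPM was 6324, 5440, 5723, 5794 and 5668 in WT MEFs at 0, 1, 2, 5 and 8 h, 6645, 4785, 4138, 5172 and 5166 in PERK -/- MEFs, and 4948, 3556 and 3455 in NIH3T3 cells at 0, 2 and 7 h. The sum was below that of the control in every Tg library, as were Col1a1, Col1a2 and Fn1, while Vim was above its control in all 10. Whether this had a part in the values of the glycolytic genes was not tested. Of 12 markers of other cell types, 0 reached 4 TPM in 12 libraries and 1 in PERK -/- MEFs at 8 h, Cd68 with 4.49. Their summed TPM was between 1.70 and 6.49, and 6 to 10 of them had 0 counts in any library.

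As background, Slc2a1 carries glucose into the cell, hexokinases trap it as glucose 6-phosphate, and phosphofructokinase commits it to glycolysis. Aldolase, phosphoglycerate kinase, enolase and pyruvate kinase turn it into pyruvate with a gain of ATP, and lactate dehydrogenase A makes lactate from pyruvate and so restores the NAD+ that the pathway needs. Most of these genes are known targets of the hypoxia-inducible factor HIF-1 and several of Myc, and cultured fibroblasts draw on glycolysis even with oxygen at hand.

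The promoters of the 4 genes whose level differed most between the genotypes at 8 h are shown for their letters that match the core of a HIF site, ACGTG or GCGTG on either strand, in capitals. The sequences are from RefSeq (GRCm38.p6, the assembly of mm10) and run from 250 bases before to 50 bases after a start site, 5′ to 3′ on the gene's strand. They lie at chr4:119108495-119108794 (+ strand) for Slc2a1, chr6:82774405-82774704 (- strand) for Hk2, chr13:6648722-6649021 (- strand) for Pfkp and chr7:46845554-46845853 (+ strand) for Ldha, the first of its windows.
Slc2a1: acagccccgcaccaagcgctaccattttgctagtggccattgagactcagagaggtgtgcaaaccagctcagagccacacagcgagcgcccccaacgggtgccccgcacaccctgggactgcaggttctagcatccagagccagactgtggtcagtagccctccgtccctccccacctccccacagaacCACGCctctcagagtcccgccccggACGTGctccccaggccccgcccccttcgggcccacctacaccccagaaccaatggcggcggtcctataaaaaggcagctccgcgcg
Hk2: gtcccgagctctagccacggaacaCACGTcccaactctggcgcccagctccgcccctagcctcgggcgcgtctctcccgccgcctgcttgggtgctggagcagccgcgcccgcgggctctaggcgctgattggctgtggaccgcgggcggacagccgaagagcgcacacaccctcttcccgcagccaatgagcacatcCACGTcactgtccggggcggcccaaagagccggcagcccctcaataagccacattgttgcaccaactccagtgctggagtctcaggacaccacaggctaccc
Pfkp: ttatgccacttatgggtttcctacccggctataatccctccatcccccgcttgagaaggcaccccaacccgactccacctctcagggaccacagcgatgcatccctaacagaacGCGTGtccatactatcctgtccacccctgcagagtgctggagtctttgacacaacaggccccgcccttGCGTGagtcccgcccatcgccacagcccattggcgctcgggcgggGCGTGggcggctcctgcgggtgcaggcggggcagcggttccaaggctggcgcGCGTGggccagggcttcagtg
Ldha: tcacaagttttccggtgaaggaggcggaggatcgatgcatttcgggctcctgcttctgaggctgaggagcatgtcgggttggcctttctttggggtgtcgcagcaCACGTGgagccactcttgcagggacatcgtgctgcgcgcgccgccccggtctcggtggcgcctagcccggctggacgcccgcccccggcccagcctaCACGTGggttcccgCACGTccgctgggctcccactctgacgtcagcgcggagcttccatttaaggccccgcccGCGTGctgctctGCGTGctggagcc
Slc2a1 and Hk2 have 2 matches each, Pfkp 4 and Ldha 7, where CACGT and CACGC in capitals are matches on the opposite strand. Each CACGTG, the E-box letters bound by Myc and related factors, holds ACGTG on both strands and so counts as 2 matches. All 10 genes have promoters in RefSeq, and each had ACGTG or GCGTG in at least 1 of its windows, 14 of 17 windows in all. Such short letters are common, as 43.8% of all 32851 promoter windows hold them and 46.7% of 27025 symbols have them in some window. CACGTG was found in 1 gene (Ldha) and in 7.15% of all windows, and TGATGNAA, the letters of an ATF4-C/EBP site, in 0 of the 10 genes and 3.97% of all windows. The windows of the 10 genes had between 51.3% and 69.0% G and C, when the median of all windows was 52.7%, and the shares of all windows were not matched for this. A match is a description of letters only.

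The 10 genes took up from 0.733% to 1.07% of the counts of a library. Together they held 0.826% of all counts in the WT control (95% Clopper-Pearson interval 0.821% to 0.831%), 0.899% in the PERK -/- control (0.891% to 0.906%) and 0.901% in the NIH3T3 control (0.896% to 0.907%). Under Tg this share was 0.929%, 0.933%, 0.929% and 0.943% in WT MEFs at 1, 2, 5 and 8 h, above the control at each time. Without PERK it was 0.885%, 0.850%, 0.968% and 1.07%, first below the control and then above it. In NIH3T3 cells it was 0.792% at 2 h and 0.733% at 7 h, below the control at both times. In every MEF library Pkm had the highest TPM of the 10 genes and Pfkp or Hk2 the lowest. The abundant enzymes of the lower pathway and the scarce ones at its entry were far apart, with 1883 TPM for Pkm and 16.4 for Pfkp in the WT control. In bulk samples a lower share can mean fewer ribosomes on each mRNA, less mRNA per cell or fewer cells that make it, which cannot be told apart.

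**Figure D1:**
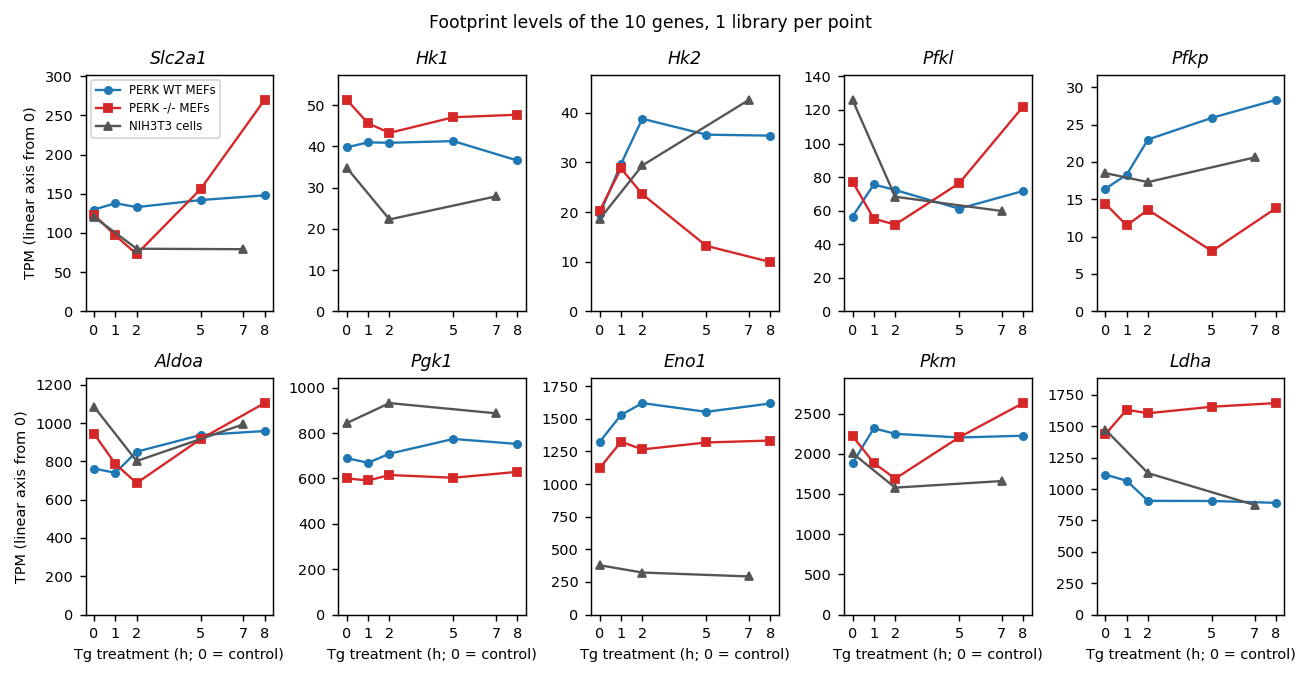
TPM of each of the 10 genes (linear axis from 0) against hours of Tg, with the control at 0 h, in PERK WT MEFs (circles), PERK -/- MEFs (squares) and NIH3T3 cells (triangles); each point is 1 library. Hk2 ends at 35.4 TPM in WT and 9.95 in PERK -/- MEFs at 8 h, whereas Slc2a1 ends at 148 and 269.8.

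No comparison had more than 2 of the 10 genes past 2-fold. WT MEFs had 0 at 1, 2, 5 and 8 h, when 6.62%, 9.66%, 9.40% and 10.3% of all genes tested were past it. The gene nearest to the limit was Hk2 at 2 h, with 1.98-fold. In PERK -/- MEFs 0 changed at 1, 2 and 5 h, beside 4.10%, 6.40% and 8.03% of all genes, and 2 at 8 h (Slc2a1 up and Hk2 down), beside 6.01%. In NIH3T3 cells 0 changed at 2 h, beside 9.52% of all genes, and 2 at 7 h (Hk2 up and Pfkl down), beside 15.1%. With so few genes these counts cannot be told from the background share.

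The direction of the small differences varied with the cells. In WT MEFs 3, 1, 1 and 2 of the 10 genes were lower than in the control at 1, 2, 5 and 8 h, beside 44.7%, 42.7%, 41.4% and 41.1% of all genes tested, while with TMM or DESeq2 factors 4 were lower at 2 h and 2 at 5 h. The median log2 change of the 10 genes was 0.12, 0.21, 0.20 and 0.27 at these times, when that of all genes was between 0.00 and 0.01. With TMM factors it was 0.03, 0.13, 0.13 and 0.17, and with a trend on coding GC content removed, a step chosen after seeing the data, 0.07, 0.09, 0.05 and 0.06. Without PERK 7, 6, 6 and 3 genes were lower, beside 55.7%, 58.4%, 48.3% and 40.1% of all genes, and at 5 h only 3 were lower on expected counts. Their median was −0.20, −0.16, −0.02 and 0.23, with −0.06, −0.11, 0.00 and 0.04 over all genes. The scaling bears on these values. With TMM factors the median of the 10 genes was −0.04, 0.07, 0.02 and 0.14 and with DESeq2 factors −0.06, 0.04, 0.02 and 0.15, so that its sign turned at 2 and 5 h, and each of the factors moved the median of all genes by 0.11 at 2 h. In NIH3T3 cells 8 genes were lower at 2 h (7 with DESeq2 factors) and 7 at 7 h, beside 58.8% and 49.6% of all genes. Here the median of the 10 genes was −0.37 and −0.30 and that of all genes −0.13 and 0.00, and DESeq2 factors moved the latter by 0.13 at 2 h and gave −0.22 and −0.18 for the 10 genes.

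**Figure D2:**
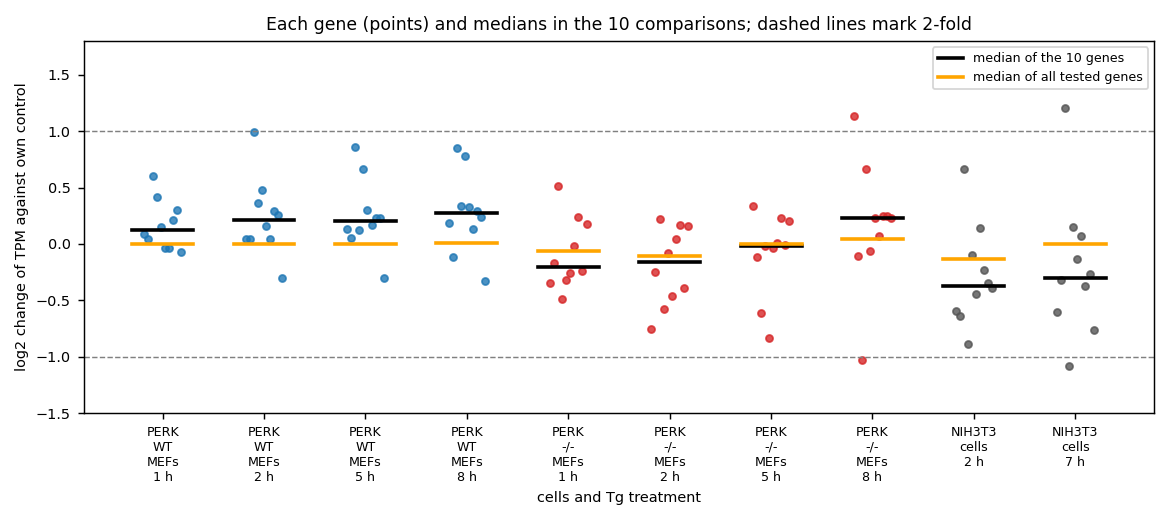
Log2 change of TPM against the own control for each of the 10 genes (points) in the 10 comparisons, with the median of the 10 genes (black bar) and of all genes tested (orange bar); dashed lines mark 2-fold. The medians run from −0.37 in NIH3T3 cells at 2 h to 0.27 in WT MEFs at 8 h, and 4 points lie past 2-fold.

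Slc2a1 (chromosome 4 of mm10, 119108745 to 119137330) encodes GLUT1, the main glucose transporter of fibroblasts. WT MEFs had 129.8 TPM of it without Tg and 138, 133, 142 and 148 after 1, 2, 5 and 8 h. The PERK -/- values were 123 without Tg and 96.9, 73.0, 156 and 269.8 after the same times. NIH3T3 cells had 120.5 TPM without Tg, 79.9 after 2 h and 79.3 after 7 h. The 3 controls were thus close, WT MEFs stayed within a narrow range, and PERK -/- MEFs held both the lowest and the highest value of the series. At 8 h Slc2a1 rose 2.19-fold in PERK -/- MEFs, with a log2 change of counts of 1.13 (1.03 to 1.22), and it was past 2-fold under each scaling tried. The log2 change at 2 h was −0.75, and that of counts −0.68 (−0.78 to −0.57). The WT log2 changes were between 0.04 and 0.19, but that at 2 h was −0.04 with TMM factors, and all 4 were below 0 (−0.01, −0.15, −0.09 and −0.07) with the trend on GC content removed. In NIH3T3 cells they were −0.59 and −0.60, with intervals of counts of −0.64 to −0.32 and −0.73 to −0.49.

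Hexokinase carries out the first step after uptake, and fibroblasts use the steady isozyme Hk1 and the inducible Hk2. Hk2 (chromosome 6, 82725025 to 82774454) had 19.6 TPM in the WT control and 29.7, 38.8, 35.6 and 35.4 after 1, 2, 5 and 8 h. Its PERK -/- values were 20.3 without Tg and 28.8, 23.6, 13.2 and 9.95 after these times. The genotypes were alike in the control and at 1 h and then parted, with the WT values high and the PERK -/- values low. NIH3T3 cells had 18.6 TPM without Tg, 29.4 after 2 h and 42.6 after 7 h, in order of time. The log2 changes in WT MEFs were 0.60, 0.99, 0.86 and 0.85, none past 2-fold. In PERK -/- MEFs they were 0.51, 0.22, −0.61 and −1.03, so that Hk2 fell at 8 h, when its control was 2.04-fold higher. That call was at its limit, since the change of counts per library total (383 in the control and 212 at 8 h, log2 interval −1.25 to −0.75) was just short of 2-fold, while TMM factors gave −1.09. It was also within 2-fold with a pseudocount of 1 TPM. In NIH3T3 cells Hk2 rose 2.29-fold at 7 h, with a log2 change of counts of 1.20 (1.04 to 1.35).

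Hk1 (chromosome 10, 62268855 to 62379920) was nearly level in MEFs. It ranged from 36.6 to 41.3 TPM over the 5 WT libraries and from 43.3 to 51.3 over the 5 PERK -/- libraries. NIH3T3 cells had 34.8 TPM of Hk1 without Tg, 22.3 after 2 h and 27.9 after 7 h. The balance of the isozymes in MEFs thus followed Hk2. Its share of the TPM of both was 32.9% in the WT control and 42.0%, 48.6%, 46.3% and 49.1% at 1, 2, 5 and 8 h. For PERK -/- MEFs the share was 28.3% without Tg, 38.7% after 1 h and 17.3% after 8 h, and for NIH3T3 cells it was 34.9%, 56.9% and 60.5% after 0, 2 and 7 h. Hk2 was thus above Hk1 only in the treated NIH3T3 libraries.

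Phosphofructokinase, the main control point of the pathway, is a tetramer of liver (Pfkl), platelet (Pfkp) and muscle (Pfkm) subunits. Pfkp (chromosome 13, 6579874 to 6649060) had 16.4 TPM in the WT control and 18.3, 23.0, 25.9 and 28.3 at 1, 2, 5 and 8 h, in order of time. The PERK -/- values were 14.4 without Tg and 11.5, 13.6, 8.06 and 13.8, of which the value at 5 h stands low. NIH3T3 cells had 18.5, 17.3 and 20.6 TPM of Pfkp after 0, 2 and 7 h. Pfkp was the least counted of the 10 genes in 12 of the 13 libraries (Hk2 in the other), with 158 counts at that low point, and its log2 change of counts there was −0.80 (−1.10 to −0.50). The largest log2 change in WT MEFs was 0.78 (0.62 to 0.95 on counts) at 8 h, within 2-fold.

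Pfkl (chromosome 10, 77986947 to 78009807) followed another course. It had 56.5 TPM in the WT control and 75.6, 72.3, 61.2 and 71.7 at 1, 2, 5 and 8 h. Its PERK -/- values were 77.3 without Tg and 55.2, 51.7, 76.3 and 122, low at 1 and 2 h and highest at 8 h, as Slc2a1 was. In NIH3T3 cells it went from 126 in the control to 68.3 at 2 h and 59.8 at 7 h. The last value is a fall of 2.11-fold, with a log2 change of counts of −1.07 (−1.18 to −0.97), but with TMM factors it was −0.99, with DESeq2 factors −0.95, and so within 2-fold. The TPM and the counts of Pfkl differed more than those of the other genes, with −0.58 and −0.35 (log2) in PERK -/- MEFs at 2 h. Within the phosphofructokinase subunits, Pfkp made up 19.2% of the TPM in the WT control and 24.2% at 8 h, 12.5% and 8.48% in PERK -/- MEFs, and 10.7% and 22.5% in NIH3T3 cells at 0 and 7 h. Pfkl was the most abundant subunit in all 13 libraries.

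**Figure D3:**
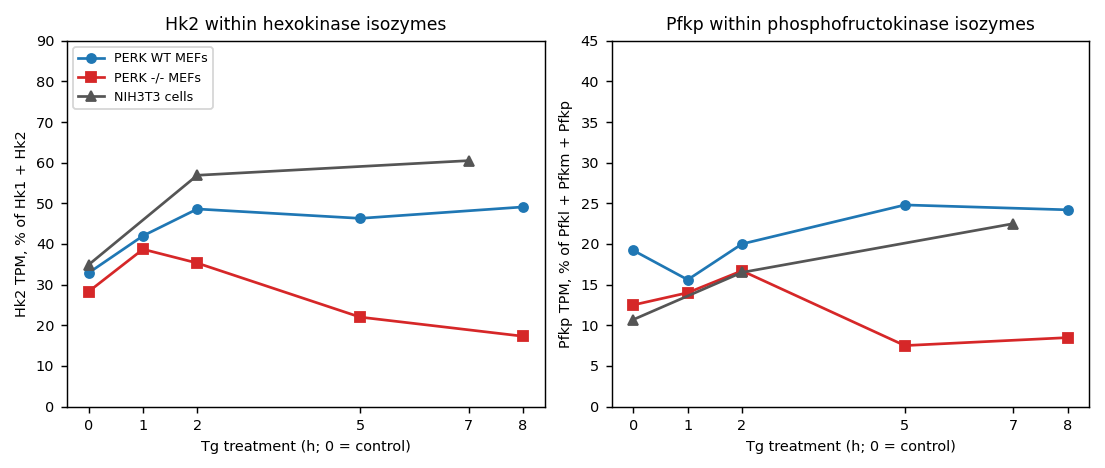
Share of Hk2 in the TPM of Hk1 and Hk2 (left) and of Pfkp in the TPM of Pfkl, Pfkm and Pfkp (right), in percent, against hours of Tg, with the control at 0 h and 1 library per point. At the last time the Hk2 share was 49.1% in WT MEFs, 17.3% in PERK -/- MEFs and 60.5% in NIH3T3 cells.

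Aldoa (chromosome 7, 126795234 to 126800994), the aldolase that splits the phosphorylated hexose, had 763 TPM in the WT control and between 740.5 and 959 under Tg. PERK -/- MEFs had 945 TPM of Aldoa without Tg and 787, 687, 917 and 1105 after 1, 2, 5 and 8 h. NIH3T3 cells had 1086, 802 and 994 after 0, 2 and 7 h. Pkm (chromosome 9, 59656576 to 59679372), the pyruvate kinase, had 1883 TPM in the WT control and between 2203 and 2318 under Tg, above the control at all times. Its PERK -/- values were 2220, 1886, 1691, 2205 and 2631, again lowest at 2 h and highest at 8 h. NIH3T3 cells had 2008, 1579 and 1661 TPM of Pkm. Each of these log2 changes was between −0.46 and 0.33.

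Pgk1, which makes the pathway's first ATP (chromosome X, 106187100 to 106203699), had the smallest range of log2 changes of TPM among the 10 genes. Its log2 changes ran from −0.04 to 0.17 in WT, from −0.02 to 0.07 in PERK -/- MEFs and were 0.14 and 0.07 in NIH3T3 cells, at levels of 591 to 932 TPM. A few of these small values change sign with the scaling (−0.02 to 0.11 in PERK -/- MEFs at 1 h with TMM factors).

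Eno1 (chromosome 4, 150236708 to 150248879) is an enolase whose level is uncertain. A near-identical copy, Eno1b on chromosome 18, differs from it in few places, as 1294 of the 1302 bases of their coding sequences are the same, and 87.3% of the 30-base windows of Eno1 occur unchanged in the copy. Footprints from such windows fit both genes, and RSEM divides them by a model. Eno1 had 1324 TPM in the WT control and 1530, 1621, 1554 and 1618 after 1, 2, 5 and 8 h, and 1123 in the PERK -/- control and 1325, 1266, 1319 and 1334 after these times. It had 378, 322 and 292 TPM in NIH3T3 cells after 0, 2 and 7 h, far below the MEF values. Eno1b had 546 TPM in the WT control, 497 in that of PERK -/- MEFs and 1554 in that of NIH3T3 cells. The copy thus held 29.2%, 30.7% and 80.4% of the sum. That sum was 1870, 1620 and 1932 TPM in the 3 controls, so the low Eno1 value in NIH3T3 cells goes with a high value of the copy. The log2 change of the sum was 0.16, 0.32, 0.34 and 0.39 in WT MEFs, 0.15, 0.08, 0.17 and 0.12 in PERK -/- MEFs, and −0.38 and −0.30 in NIH3T3 cells.

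Ldha (chromosome 7, 46842274 to 46855627) closes the pathway in cells that release lactate. WT MEFs had 1115 TPM of it without Tg and 1066, 906, 905 and 890.2 after 1, 2, 5 and 8 h, below the control throughout. PERK -/- MEFs had 1437 without Tg and 1632, 1604, 1656 and 1685, above the control throughout. NIH3T3 cells had 1473, 1127 and 873 TPM after 0, 2 and 7 h, below the control at both times, as in WT MEFs. The log2 changes of counts at 8 h were −0.33 in WT MEFs (−0.36 to −0.29), 0.22 in PERK -/- MEFs (0.18 to 0.25) and −0.76 (−0.80 to −0.72) in NIH3T3 cells at 7 h, all within 2-fold and of the same sign under each scaling. Ldhb, the other subunit of the enzyme in these cells, made up at most 2.97% of the TPM of both in any library.

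**Figure D4:**
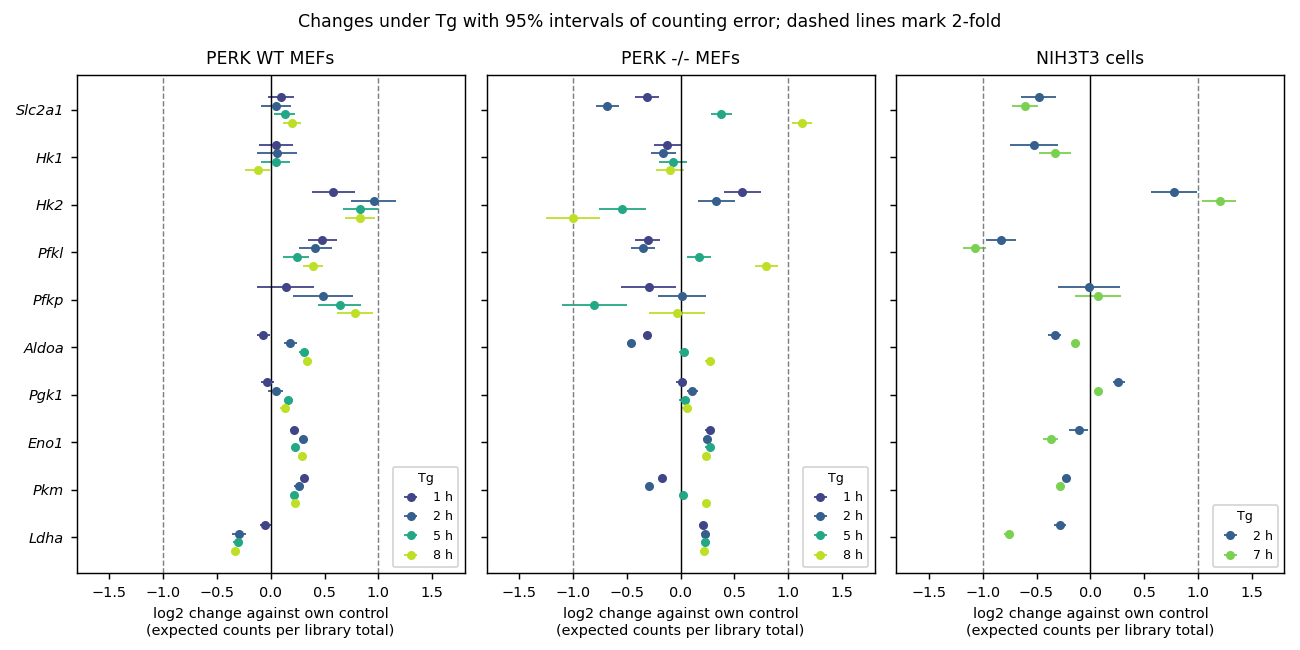
Log2 change of expected counts per library total against the own control for each gene, with 95% intervals of counting error (bars), by hours of Tg (colours), in PERK WT MEFs, PERK -/- MEFs and NIH3T3 cells; dashed lines mark 2-fold. Hk2 is at 0.57 after 1 h and −0.54 after 5 h in PERK -/- MEFs, and Ldha lies below 0 in WT and NIH3T3 cells and above 0 in PERK -/- MEFs.

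The genotypes were also set against each other at the same time, to show where the lines part. In the controls and at 1 and 2 h, 0 of the 10 genes were 2-fold apart, beside 8.00%, 8.83% and 16.3% of all genes tested. At 5 h 2 genes were, beside 16.0%, and at 8 h 2, beside 15.7%. Both times these were Hk2 and Pfkp, each lower without PERK. Both were past 2-fold on TPM, on expected counts and with TMM and DESeq2 factors. Pfkp was near the limit at 8 h, and no value with a pseudocount of 1 TPM is given for these differences. Hk2 was 2.68-fold higher in WT at 5 h and 3.55-fold at 8 h, and Pfkp 3.21-fold and 2.05-fold. The intervals of the log2 difference of counts, PERK -/- minus WT, were −2.03 to −1.60 for Hk2 and −1.26 to −0.84 for Pfkp at 8 h. Slc2a1, Pfkl and Ldha were on the other side at 8 h, with 0.86, 0.77 and 0.92. The median of the 10 genes was 0.15 in the controls and −0.19, −0.38, −0.02 and 0.22 at 1, 2, 5 and 8 h, with 0.08, 0.00, −0.01, 0.01 and 0.09 over all genes. With TMM factors it was −0.03, −0.14, −0.25, −0.08 and 0.07 and with DESeq2 factors −0.02, −0.20, −0.28, −0.05 and 0.10, so that the sign in the controls depends on the scaling. At 8 h single genes stood on opposite sides. Ldha was higher without PERK in the controls and at each time of Tg, with 0.37, 0.61, 0.82, 0.87 and 0.92, and so was Hk1. Pfkp, Pgk1 and Eno1 were lower throughout, and the other genes went both ways.

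Neighbouring times were compared with each other, as there were no replicates. These libraries differ in hours of Tg and in depth, so that their spread cannot stand for that of replicates. Over all genes tested the SD of the log2 ratio was 0.46 between 1 and 2 h and 0.19 between 5 and 8 h in WT MEFs, and 0.30 and 0.54 in PERK -/- MEFs. The PERK -/- library at 8 h thus lay apart from that at 5 h over all genes tested, with 720 genes at least 2-fold apart against 15 in WT. Between 1 and 2 h it was 421 genes in WT and 104 in PERK -/- MEFs. Slc2a1 differed by 0.79, Pfkp by 0.78 and Pfkl by 0.68 between these PERK -/- libraries, and Hk2 by −0.41. Both calls at 8 h, the 2.19-fold rise of Slc2a1 and the fall of Hk2, therefore rest on 1 library, as the log2 changes at 5 h were 0.34 and −0.61, of the same sign but within 2-fold.

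In PERK -/- MEFs 4 of the 10 genes (Slc2a1, Pfkl, Aldoa and Pkm) had their lowest TPM of the 5 libraries at 2 h and their highest at 8 h, beside 13.4% of all genes. This order was noticed in the values and not set beforehand. These 4 genes are rich in G and C, with 56.9%, 57.6%, 57.0% and 56.1% of their coding sequence, when the median of all genes tested in MEFs was 52.8%. Of the others Hk2 has 56.3%, Eno1 55.4%, Hk1 54.6%, Pfkp 52.4%, Ldha 51.6% and Pgk1 49.7%. Over the 10022 genes with a sequence, which are not independent, the log2 change went with GC content at Pearson r of 0.23, 0.34, 0.38 and 0.42 in WT MEFs at 1, 2, 5 and 8 h. For PERK -/- MEFs r was −0.34, −0.44, −0.08 and −0.03, and in NIH3T3 cells −0.10 and −0.05 over 9677 genes. With this trend removed, the log2 change at 2 h in PERK -/- MEFs was −0.53 for Slc2a1, −0.33 for Pfkl, −0.23 for Aldoa and −0.20 for Pkm, in place of −0.75, −0.58, −0.46 and −0.39. At 8 h in these cells it was 1.10 for Slc2a1, 0.63 for Pfkl and 0.19 for Aldoa, in place of 1.13, 0.66 and 0.23. In WT MEFs at 8 h it was 0.06 for Pfkl, 0.07 for Aldoa and 0.02 for Pkm, in place of 0.34, 0.33 and 0.24. Hk2, Ldha, Pfkp and Eno1 had the same sign with and without the trend in all 10 comparisons. The part of GC content in these values was not tested beyond this.

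The steps of glycolysis that the 10 genes leave out are catalysed by Gpi1, Tpi1, Gapdh and Pgam1, which stayed within 2-fold in all 10 comparisons. Gapdh had 5343 TPM in the WT control and 6429 at 8 h, 5539 and 6769 in PERK -/- MEFs, and 3873 and 2590 in NIH3T3 cells at 0 and 7 h. Among 10 other glycolytic enzymes tested in MEFs, 0 changed in either genotype at any time, beside from 4.10% to 10.3% of all genes. Of 9 tested in NIH3T3 cells 0 changed at 2 h and 1 at 7 h, beside 9.52% and 15.1%. This was Pfkm, which fell from 27.8 to 11.0 TPM. The log2 change of Pfkm counts was −1.33 (−1.57 to −1.10), beside that of Pfkl above. The median of this list was 0.14, 0.21, 0.24 and 0.22 in WT MEFs at 1, 2, 5 and 8 h, −0.13, −0.21, 0.05 and 0.25 in PERK -/- MEFs, and −0.22 and −0.50 in NIH3T3 cells.

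Of 10 regulators of glycolytic flux tested in MEFs, 1 rose in WT MEFs after both 5 and 8 h, when 9.40% and 10.3% of all genes changed. It was Bpgm, which makes 2,3-bisphosphoglycerate from a glycolytic intermediate. Bpgm had 20.5 TPM in the WT control, 75.4 at 5 h and 65.2 at 8 h, a log2 change of counts of 1.67 (1.43 to 1.92) at 8 h. The PERK -/- values of Bpgm were 32.3 TPM without Tg and 60.1 and 46.2 after 5 and 8 h, higher but within 2-fold. Without PERK 1 regulator was called after 1 h and 1 after 2 h, beside 4.10% and 6.40% of all genes. In both cases it was Pfkfb4, which fell from 14.0 TPM to 6.04 and 4.97, the first of them named after its value was seen. In NIH3T3 cells 1 of 8 fell by at least 2-fold at 2 h (Pdk2) and 1 at 7 h (Pdk1), beside 9.52% and 15.1% of all genes changed. Both were named after their values were seen, since their counts are low. With so few regulators these counts cannot be told from the shares of all genes. Of 7 sugar and lactate carriers tested in MEFs, 2 rose in PERK -/- MEFs at 8 h, Slc16a3 and Slc2a6, when 6.01% of all genes changed. In NIH3T3 cells 1 of 5 rose at 2 h and 1 at 7 h, beside 9.52% and 15.1% of all genes. In PERK -/- MEFs Slc16a3, the lactate exporter MCT4, went from 44.4 TPM in the control to 146 at 8 h, 3.28-fold. The log2 change of its counts there was 1.71 (1.55 to 1.86). In WT MEFs Slc16a3 was the 1 carrier that rose at 1 h, from 15.1 to 36.9 TPM, when 6.62% of all genes changed. It had between 13.5 and 14.3 TPM at 2, 5 and 8 h. Slc2a6, a hexose transporter named after its values were seen, had 7.07 and 20.1 TPM in PERK -/- MEFs at 0 and 8 h, and 4.20, 14.6 and 34.2 in NIH3T3 cells at 0, 2 and 7 h.

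Of 6 genes that sense glucose or act on the transporter, 1, 2, 1 and 1 rose in WT MEFs at 1, 2, 5 and 8 h, 0, 0, 1 and 0 in PERK -/- MEFs, and 2 and 3 in NIH3T3 cells at 2 and 7 h. The number that fell was 0 but for 1 in PERK -/- MEFs at 2, 5 and 8 h each. In the same order 6.62%, 9.66%, 9.40% and 10.3%, 4.10%, 6.40%, 8.03% and 6.01%, and 9.52% and 15.1% of all genes changed either way. Txnip, an arrestin that draws GLUT1 from the cell surface, had 95.8 TPM in the NIH3T3 control, 680.2 after 2 h and 426 after 7 h. Its log2 change of counts was 2.95 (2.85 to 3.04) and 2.15 (2.06 to 2.25). In WT MEFs Txnip had 3.22 TPM in the control and 30.4 at 8 h, and it was the gene that rose at each of the 4 times. It was named there after its values were seen, as were Mlxip (WT MEFs at 2 h), Prkaa2 (PERK -/- MEFs at 5 h) and Arrdc4 (NIH3T3 cells at 7 h), which also rose. Myc, a transcription factor of many glycolytic genes, rose in NIH3T3 cells from 224 TPM to 484 and 852. Myc instead fell in PERK -/- MEFs from 90.4 TPM to 38.3, 35.7 and 40.2 at 2, 5 and 8 h. The log2 change of its counts at 8 h was −1.20 (−1.37 to −1.03). No relation of these genes to the 10 was tested.

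Of 12 genes tested in a list of HIF subunits (Hif1a and Arnt) and other hypoxia-inducible genes, 6, 7, 6 and 6 were lower than in the control in WT MEFs at 1, 2, 5 and 8 h, 8, 10, 7 and 3 in PERK -/- MEFs, and 7 and 6 in NIH3T3 cells at 2 and 7 h. Beside these, 44.7%, 42.7%, 41.4% and 41.1% of all genes were lower in WT, 55.7%, 58.4%, 48.3% and 40.1% in PERK -/- MEFs and 58.8% and 49.6% in NIH3T3 cells. The median in PERK -/- MEFs at 2 h was −0.28. By the 2-fold limit 0, 2, 2 and 2 rose and 1, 3, 1 and 2 fell in WT MEFs at 1, 2, 5 and 8 h, 0, 0, 0 and 2 rose and 0, 1, 0 and 0 fell in PERK -/- MEFs, and 1 and 2 rose and 1 and 1 fell in NIH3T3 cells at 2 and 7 h, when from 4.10% to 15.1% of all genes changed. At the last time the medians were 0.06, 0.24 and −0.14. Those that fell were Egln3 at each time, P4ha1 at 2 and 8 h and Egln1 at 2 h in WT MEFs, Adm in PERK -/- MEFs and Egln1 in NIH3T3 cells at both times, and Adm was the gene that rose in NIH3T3 cells at 2 h. Egln3, Egln1 and Adm were named after their values were seen. The fall of Egln1 in NIH3T3 cells at 2 h was under 2-fold in CPM, from 17.8 to 9.34. At the last time Ndrg1, a stress protein, rose in all 3, from 34.9 to 145, from 26.7 to 58.7 and from 55.7 to 222 TPM. Vegfa, the angiogenic growth factor, rose in WT MEFs (45.9 to 119.6) and NIH3T3 cells (60.2 to 183), P4ha1, a collagen prolyl hydroxylase, fell in WT MEFs (172 to 79.6), and Bnip3, a mitophagy receptor, rose in PERK -/- MEFs (63.7 to 167). The pentose phosphate pathway, which branches off glucose 6-phosphate, had 0 of 8 enzymes past 2-fold in WT MEFs at any time. By that limit 2 fell in PERK -/- MEFs at 2 h (H6pd and Pgls) and 1 in NIH3T3 cells at 7 h (H6pd). Pgls was at the limit, with 81.5 and 40.8 TPM and a log2 change of counts of −0.89 (−1.10 to −0.67), under 2-fold. Counting differences of any size, all 8 were lower in PERK -/- MEFs at 2 h. Of 25 genes of pyruvate entry and the citric acid cycle, only Mpc2 passed the 2-fold limit, falling in WT MEFs at 2 h. It was named after its value was seen, and 0 genes passed in the other 9 comparisons. By any amount, 7, 5, 5 and 5 of the 25 were below the control in WT MEFs at 1, 2, 5 and 8 h. In PERK -/- MEFs these numbers were 12, 13, 3 and 5. For NIH3T3 cells they were 21 and 18 at 2 and 7 h, with medians of −0.26 and −0.10. The shares of all genes are those given above. In the hexosamine pathway 1 of 6 genes rose in WT MEFs at 2, 5 and 8 h, the kinase Nagk, from 13.2 to 36.8 TPM at 8 h. At 2 h Nagk was named after its value was seen, and its rise from 10.3 to 20.2 CPM was under 2-fold. The same gene fell in PERK -/- MEFs from 46.8 TPM to 18.8 at 2 h (log2 change of counts −0.84, −1.12 to −0.56, which is under 2-fold). It fell to 14.7 TPM at 5 h, a call named after its value was seen. Of 8 genes of glycogen metabolism 1 rose in WT MEFs at 5 and 8 h, the glycogen synthase Gys1, from 16.1 to 42.7 TPM at 8 h. Over these 9 lists 3.26%, 9.78%, 7.61% and 8.70% of the 92 genes tested changed in WT MEFs at 1, 2, 5 and 8 h, 1.09%, 6.52%, 3.26% and 5.43% in PERK -/- MEFs, and 6.98% and 11.6% of 86 in NIH3T3 cells at 2 and 7 h. Over all genes these shares were 6.62%, 9.66%, 9.40% and 10.3%, then 4.10%, 6.40%, 8.03% and 6.01%, and 9.52% and 15.1%, so that the lists were just above them at 2 h in both MEF genotypes and below them in the other 8 comparisons.

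The mean of the 10 centred log2 profiles over the 10 MEF libraries ran from −0.21 in PERK -/- MEFs at 2 h to 0.15 in WT MEFs at 8 h. Among 5343 other genes with a mean of at least 20 TPM, those most like it were Cdc45 and Sfxn3 (both Pearson r = 0.977 over 10 libraries), Tmub2 (0.963), Klhl22 (0.961), Trmt2a (0.959), Usp19 (0.956), Cog8 (0.955), Ptpn23 (0.955), Zmiz1 (0.954) and Ndufs3 (0.952). None is a glycolytic gene. The libraries share controls, genotype and the trend on GC content, and 9 of these genes have a coding GC content above the median of all genes.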

How the data were processed

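Ribosome footprints of 13 libraries, 1 per condition, were used. Per gene, the authors deposited expected counts from RSEM, which are whole numbers. The TPM values, also deposited by the authors, are scaled within each library over coding sequences clipped by 30 nt at each end. Footprints of 22 to 34 nt had been filtered with STAR and aligned with Bowtie2 to mm10 coding sequences, and the versions of STAR, Bowtie2 and RSEM are not given in the sources used here.

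The 10 genes and the 9 lists of related genes were chosen with earlier results of these data known. Genes with a mean of at least 2 TPM were analysed, with values under 4 TPM raised to 4. With 1 library per condition there was no test. Intervals of a change of counts per library total are exact conditional (Clopper-Pearson) at 95%, and 3 counts set the lowest detectable level. From the other lists, genes changed at least 2-fold with both libraries at 100 expected counts or more were named, at most 5 per list and comparison. Also named were the enzymes of the missing steps, the checks of genotype and treatment, and the 10 genes most alike by Pearson r over the 10 MEF libraries with a mean of at least 20 TPM. The alternatives tried were expected counts per library total, a floor or a pseudocount of 1 TPM, edgeR TMM factors, DESeq2 size factors, folds of 1.5 and 3 and a mean of at least 5 TPM. Removal of the lowess trend on coding GC content (fraction 0.3) and the sum of Eno1 and Eno1b were chosen after seeing the data. The steps were tested on simulated data. R 4.3.3, edgeR 4.0.16, DESeq2 1.42.0, Python 3.11.15, scipy 1.17.1, numpy 2.4.6, matplotlib 3.10.9, pandas 2.3.3 and statsmodels 0.14.6 were used. No column of the tables was left out.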

Additional observations from a re-analysis of the deposited data

Results flagged for a closer look

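For 6 of the 10 genes all Tg libraries of a genotype or cell line lay on one side of their control and all those of another on the opposite side. Each difference given is the mean log2 change of the second minus that of the first, and none of these differences was tested.

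Between WT and PERK -/- MEFs this held for 2 genes, beside 7.98% of all 10432 genes. Pfkp had a mean log2 change of 0.52 in WT and −0.32 in PERK -/- MEFs, a difference of −0.84, although its value in PERK -/- MEFs at 2 h, −0.08, was 0.16 with TMM and 0.13 with DESeq2 factors. The PERK -/- mean rests largely on the library at 5 h, with −0.32, −0.08, −0.83 and −0.06 at 1, 2, 5 and 8 h, and without it the mean is −0.15 and the difference −0.67. The intervals of the change of counts at 2 h, −0.21 to 0.24, and at 8 h, −0.29 to 0.23, hold 0. Ldha went the other way, with −0.25 in WT and 0.19 in PERK -/- MEFs, a difference of 0.44.

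Between WT MEFs and NIH3T3 cells it held for 4 genes, beside 13.7% of the 9367 genes analysed in both. Slc2a1 had means of 0.11 and −0.60, a difference of −0.71, but all 4 of its WT values were below 0 with the trend on GC content removed. Pfkl had means of 0.31 and −0.98, a difference of −1.29, with −0.13 in WT MEFs at 5 h once that trend was removed. Eno1 had means of 0.26 and −0.30, a difference of −0.56, and Pkm means of 0.26 and −0.31, a difference of −0.57. With the trend removed the WT values of Eno1 were lower, with 0.14, 0.15, 0.07 and 0.10 at 1, 2, 5 and 8 h. That of Pkm at 8 h was 0.02 in place of 0.24.

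Between PERK -/- MEFs and NIH3T3 cells it held for 2 genes, beside 8.78%. Eno1 had means of 0.22 and −0.30, a difference of −0.52, and its level in NIH3T3 cells depends on how footprints were divided between it and Eno1b. Ldha had means of 0.19 and −0.57, a difference of −0.76. The dose of Tg differed between MEFs and NIH3T3 cells, so that cell line and dose cannot be told apart. The time of 2 h was common to both, while 7 h was sampled in NIH3T3 cells alone.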

How the results depend on the processing

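No analysis paired by replicate was possible because each condition had 1 library and the labels give no replicate numbers that libraries share. The genotypes match by time, and their differences at each time are given above without a test. There was likewise no replicate to leave out.

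With a fold of 1.5 the number of the 10 genes past the limit was 1, 1, 2 and 2 in WT MEFs at 1, 2, 5 and 8 h (0 at 2-fold), 1 at 2 h, 2 at 5 h and 3 at 8 h in PERK -/- MEFs, and 4 at 2 h and 4 at 7 h in NIH3T3 cells. With a fold of 3 it was 0 in PERK -/- MEFs at 8 h and 0 in NIH3T3 cells at 7 h (2 each at 2-fold). A laxer or stricter fold gives more or fewer calls by its construction. The shares of all genes past these other folds are not given, so that these counts cannot be set against a background. On expected counts per library total 1 gene was past 2-fold in PERK -/- MEFs at 8 h, and likewise 1 with a pseudocount of 1 TPM. In NIH3T3 cells at 7 h it was 1 with TMM factors, 1 with DESeq2 factors and 1 with the trend on GC content removed, which was chosen after seeing the data.

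The number of genes lower than in the control was 4 with TMM and 4 with DESeq2 factors in WT MEFs at 2 h (1 on TPM), and 2 and 2 at 5 h (1 on TPM). In PERK -/- MEFs at 5 h it was 3 on expected counts, 3 with TMM, 3 with DESeq2 factors and 3 with the GC trend removed (6 on TPM). Removal of that trend also gave 5, 4 and 4 lower genes in WT MEFs at 1, 2 and 5 h, and a median of 0.05 in place of 0.20 at 5 h and of 0.06 in place of 0.27 at 8 h. With TMM factors the median was 0.03 in place of 0.12 in WT MEFs at 1 h, and 0.07 in place of −0.16 in PERK -/- MEFs at 2 h. Between the genotypes these factors gave −0.03 in place of 0.15 in the controls, and 0.07 in place of 0.22 at 8 h. In these results the cause was not tested.

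Of the 100 log2 changes of the 10 genes, 0 changed sign with a floor or pseudocount of 1 TPM, 5 on expected counts per library total, 11 with TMM factors, 11 with DESeq2 factors and 13 with the GC trend removed. All that changed sign were below 0.2 in size on TPM. The largest shift was that of Pfkl in PERK -/- MEFs at 2 h, from −0.58 to −0.20 with TMM factors. Depth limits the scarcer genes, and with 126 counts Pfkp in NIH3T3 cells at 2 h had an interval of −0.30 to 0.27.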
